A study of Arabidopsis thaliana with 62 samples.

Results

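The chlm mutant of Arabidopsis thaliana was compared with the wild type Col0 in 15 libraries of plastid DNA, of 62 samples in the series. They were chosen by their titles: 4 chlm and 4 Col0 libraries of the membrane fraction of chloroplasts, and 3 chlm and 4 Col0 libraries of the stroma fraction. The same table holds 8 libraries of the chl27 mutant, of another gene of chlorophyll synthesis, and 8 of the sigma factor mutant sig2-2, 4 of each fraction; they entered the same fit of 31 libraries, which shares 1 estimate of the spread, and each mutant was compared with chlm. The fourth chlm stroma library, replicate 1, was left out because its column holds the running position along the genome and no coverage. All groups were seedlings aged 4 days by the titles and 4 to 5 days by the protocol, grown on plates under continuous light of 100 µmol per square metre per second with no treatment, 50 seedlings per sample, fixed with 4% formaldehyde for 4 h before grinding. The genotype field of the labels reads wild type for every one of these samples, while the title and the line name give chlm or Col0, and the title was followed. CHLM is a nuclear gene, so coverage of the plastid genome cannot check the genotype, and nothing in the labels gives the allele or how far greening was affected. The labels do not say that replicates came from separate sowings, so the p-values measure the spread between these samples.

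CHLM encodes the methyltransferase that acts on magnesium protoporphyrin in chlorophyll synthesis, and CHL27 is a subunit of the cyclase that takes the next step. The pathway begins in the plastid with glutamate carried by the tRNA that the plastid gene trnE encodes. Plastid DNA is packed with proteins in nucleoids, which are held at the thylakoid and envelope membranes. Plastid genes are read by a plastid-encoded RNA polymerase, which nuclear-encoded sigma factors guide to promoters, and by a second polymerase from the nucleus that reads mainly housekeeping genes. Formaldehyde holds DNA to what it touches, so the DNA recovered with membranes after breakage can be set beside the DNA recovered with the soluble stroma. The title of the series asks whether transcribed genes tie the nucleoid to membranes, and the chlm libraries ask whether that picture differs in a plant whose chlorophyll synthesis is impaired.

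Each value below is the mean coverage of a gene or of a 500-bp window divided by the mean of its library, so 1 is the genome average and a value is a share, not an amount of DNA. The ratio comparison is the difference of the membrane and the stroma change and is built from the same libraries. Differences are log2 changes from limma, with the replicate number as a block, and a call is a Benjamini-Hochberg adjusted p under 0.05 over all 113 genes or all 259 windows. Mean coverage per base was 419 to 1199 in the chlm membrane libraries, 379 to 924 in the Col0 membrane libraries, 2471 to 3994 in the chlm stroma libraries and 1936 to 4528 in the Col0 stroma libraries. Membrane libraries were shallower than stroma libraries in both genotypes, with no overlap. Libraries with the same number deviated together: over 14 same-number pairs the correlation of deviations from the group means ran from 0.12 to 0.97. A single direction held 85.6% of the spread within groups. On it chlm stroma replicate 4, at -0.02, stood apart from the other libraries numbered 4, at -0.14 to -0.33 (values of the leading component).

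No gene and no window was called between chlm and Col0, in the membrane, in the stroma or in the ratio of membrane to stroma. Of the 113 genes 0% passed the adjusted limma threshold in each comparison, and so did 0% of the 259 windows. At an unadjusted limma p under 0.05 there were 4 genes in the membrane (3.54%), 13 in the stroma (11.5%) and 20 in the ratio (17.7%), and 7 windows (2.7%), 29 (11.2%) and 38 (14.7%). The order of membrane and stroma depended on the fit. Fitting the fractions apart changes both the spread and the replicate block, and the part of each was not tested. With the fractions fitted apart, 27 genes and 54 windows passed that threshold in the membrane, and 3 genes and 4 windows in the stroma. The smallest limma adjusted p of a gene was 0.839 in the membrane, 0.331 in the stroma and 0.248 in the ratio. Gene changes ran from -0.23 to 0.16 log2 units in the membrane, from -0.28 to 0.32 in the stroma and from -0.49 to 0.34 in the ratio. The 95% intervals lay within 0.5 log2 units of no change for 111 genes in the membrane, 109 in the stroma and 93 in the ratio. For the remaining genes a change above 0.5 log2 units was inside the interval.

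**Figure D1:**
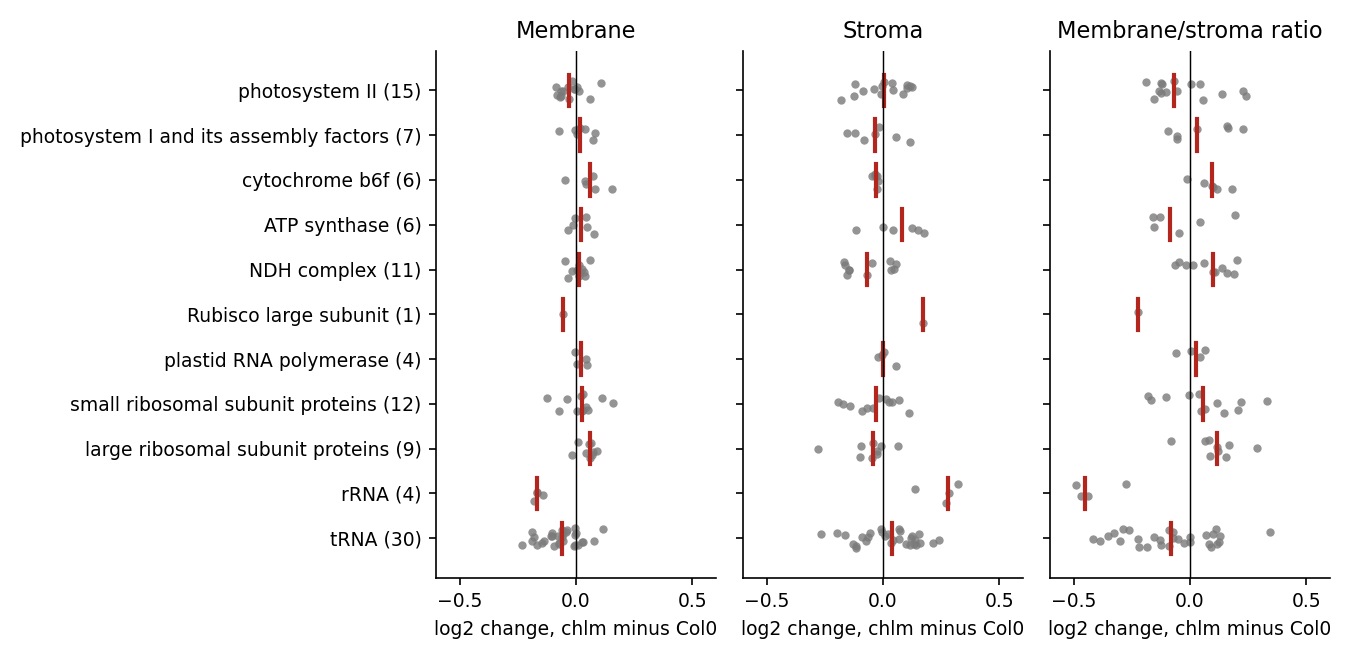
Log2 change of each gene between chlm and Col0 (x axis) by functional group (rows, number of genes in parentheses) in the membrane, the stroma and the membrane/stroma ratio; each point is 1 gene and the red bar is the group median. No gene was called; the rRNA genes have the medians farthest from 0, at -0.17, 0.28 and -0.45.

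The farthest values belonged to the rRNA operon, which encodes the RNA core of the plastid ribosome and lies in the inverted repeat. It was taken as positions 101012 to 107701 of the TAIR10 plastid genome (first copy). That stretch runs from the start of rrn16S to the end of rrn4.5S (ArthCt109), and the rRNA gene that follows lies outside it. Operon coverage divided by that of both single-copy regions was 1.19, 1.90, 1.06 and 0.72 in chlm membrane replicates 1 to 4, and 1.35, 1.91, 1.33 and 0.87 in Col0. Each chlm membrane library was below the Col0 library of the same number, by very little in replicate 2, and the groups overlapped. In the stroma it was 1.24, 0.91 and 0.94 in chlm replicates 2, 3 and 4, and 0.91, 0.93, 0.83 and 0.62 in Col0 replicates 1 to 4. Here each chlm library was above its Col0 partner, and the groups overlapped. The means were 1.22 ± 0.50 (SD, n = 4) in chlm and 1.36 ± 0.43 (SD, n = 4) in Col0 membranes, and 1.03 ± 0.18 (SD, n = 3) and 0.83 ± 0.14 (SD, n = 4) in stroma.

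Neither difference passed a permutation test. The log2 difference was -0.20 in the membrane, with p = 0.629 by an exact two-sided permutation test, and 0.32 in the stroma, with p = 0.2 by the same exact test; 0.0286 is the smallest p that each could give. With genotypes exchanged only between libraries of the same number, the exact p was 0.125 in the membrane and 0.25 in the stroma. Those are the smallest values that 4 and 3 pairs allow, so neither paired test could pass. Without chlm membrane replicate 4 alone, which leaves its low Col0 partner in, the unpaired membrane difference was 0.03, while every same-number pair was lower in chlm.

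**Figure D2:**
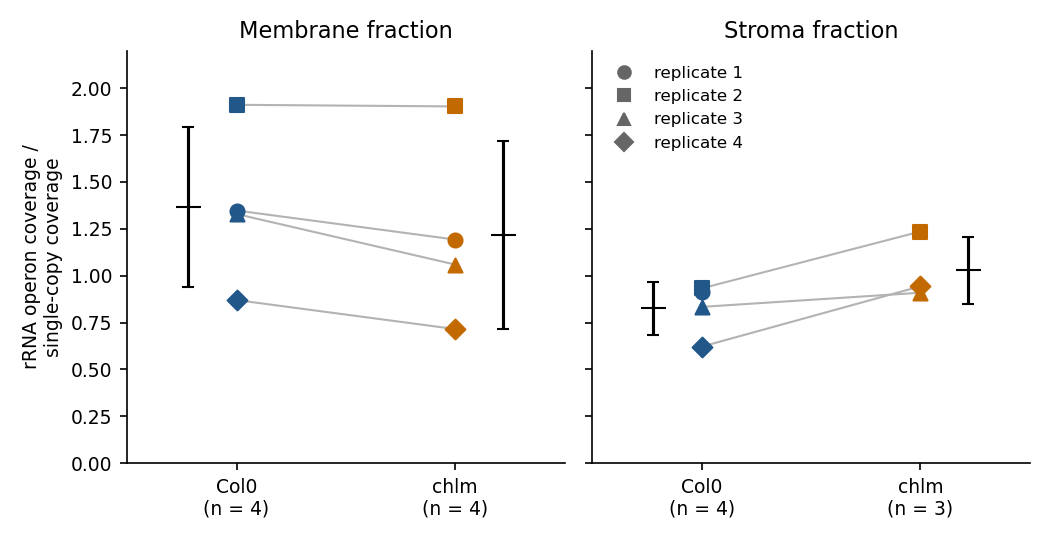
Coverage of the rRNA operon divided by single-copy coverage (y axis, linear, from 0) in each library; lines join the Col0 and chlm libraries of the same number, and black bars are the mean and SD of each group. The chlm values lie below their Col0 partners in the membrane (4 of 4) and above them in the stroma (3 of 3).

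Divided between fractions, operon coverage was 1.54, 1.16 and 0.76 times as high in the membrane as in the stroma in chlm replicates 2, 3 and 4. In Col0 replicates 1 to 4 it was 1.47, 2.05, 1.59 and 1.40 times as high. All 3 chlm pairs were below the Col0 pair of the same number, chlm replicate 4 was the pair in which the stroma exceeded the membrane, and chlm replicate 2 lay inside the Col0 range. The membrane/stroma ratio of rrn16S (ArthCr086), the small-subunit rRNA gene, was lower by a log2 change of -0.49 ± 0.21 (SE; 95% interval -0.93 to -0.05) at a limma adjusted p of 0.256. For rrn23S (ArthCr087), the large-subunit rRNA gene, the change was -0.47 ± 0.19 (SE) at a limma adjusted p of 0.248. All 4 rRNA genes had an unadjusted limma p under 0.05 and a lower ratio, against 11.5% of all genes tested. Their median ratio change was -0.45, beside 0.02 for all genes. None was called.

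The ratio depended on which libraries were kept. Leaving out chlm stroma replicate 2 kept only replicates 3 and 4 in that group, and replicate 4 is the library that stood apart above. In that fit 17 of 113 genes and 45 of 259 windows were called by limma in the ratio, and 17 genes and 49 windows in the stroma. Of the 17 stroma genes 14 were higher in chlm, among them psbA, psbB, psbC, psbD, psaA, atpB and rbcL, and 3 were lower. The rrn16S ratio change was then -0.68 (limma adjusted p = 0.0312), and all 14 windows of the operon were called lower. The ratio calls were not limited to the operon. Of the 259 windows 28 were called lower, 14 of them outside the operon, and 17 were called higher, 7 of them in the small single-copy region. Without chlm stroma replicate 4, which stood apart from the other libraries numbered 4, no gene or window was called, and 1 gene and 4 windows had an unadjusted limma p under 0.05. The rrn16S ratio change was then -0.25 (limma adjusted p = 0.783). Without chlm stroma replicate 3 nothing was called and the change was -0.54. Leaving out Col0 stroma replicate 2 gave no call in the ratio, with 8 genes and 19 windows at an unadjusted limma p under 0.05. Leaving out chlm membrane replicate 4 gave no call, with 9 genes and 19 windows. With all libraries these counts were 20 and 38.

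**Figure D3:**
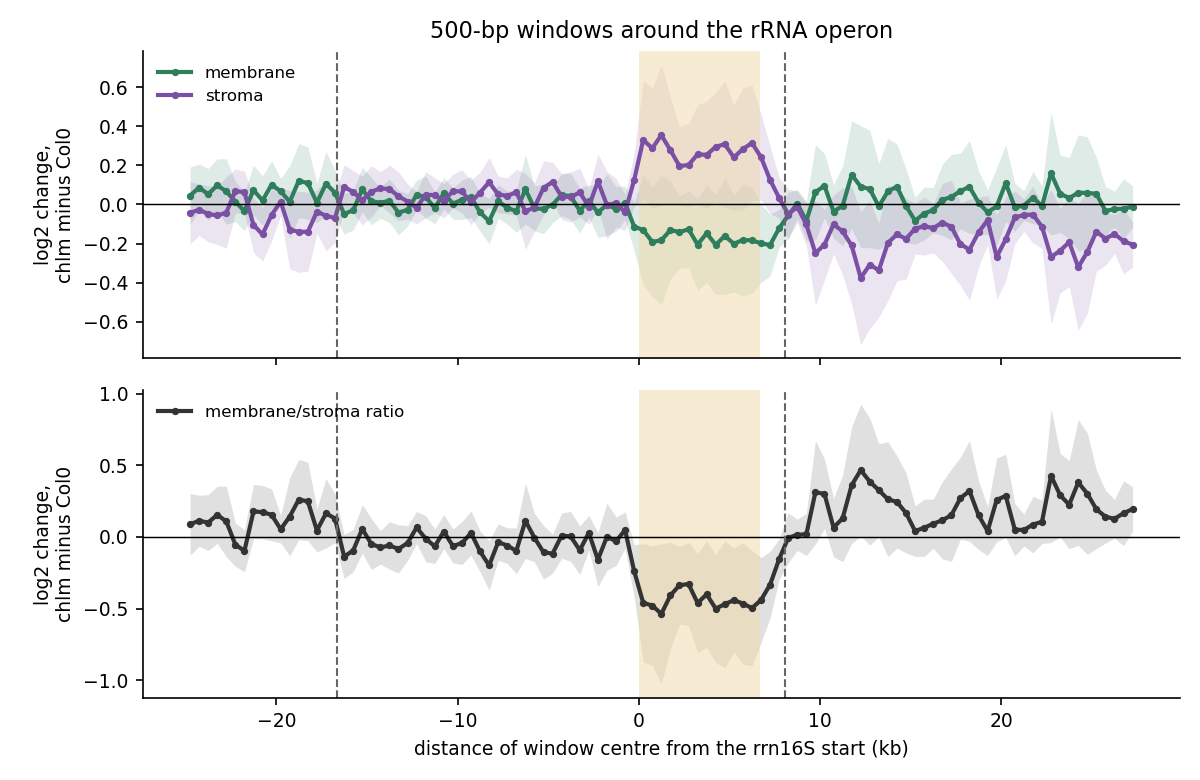
Log2 change between chlm and Col0 in 500-bp windows (points) by distance from the rrn16S start (x axis, kb). Membrane and stroma are at the top and their ratio is at the bottom. Bands are 95% intervals from limma, the shaded block is the rRNA operon up to the end of rrn4.5S, and dashed lines are the ends of the inverted repeat. Within the operon the stroma change was 0.20 to 0.35 and the membrane change -0.21 to -0.13, and in the small single-copy region, past the repeat, all 41 windows had a negative stroma change.

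Beyond the end of the repeat the stroma values had the other sign. All 14 genes tested in the small single-copy region had a negative stroma change, with a median of -0.16 beside -0.01 for all genes, and 4 of them had an unadjusted limma p under 0.05, against 4.42% of all genes in that direction. The region carries 7 of the 11 NDH genes, whose products form the chloroplast NADH dehydrogenase-like complex, with ribosomal protein genes and ycf1. Its coverage relative to the genome mean was 0.93 ± 0.06 (SD, n = 3) in chlm stroma and 1.04 ± 0.06 (SD, n = 4) in Col0 stroma. In the membrane it was 0.97 ± 0.10 and 0.95 ± 0.09 (SD, n = 4 each). Replicates of the same group also differed in opposite directions in the operon and this region. Relative to the genome mean, Col0 membrane replicate 2 had 1.68 and 0.83, and replicate 4 had 0.87 and 1.05. In chlm stroma, replicate 2 had 1.13 and 0.87, and replicate 3 had 0.90 and 0.99. The part of this replicate spread in the genotype values was not tested. Because each library was divided by its own mean, a larger share for the operon leaves a smaller one elsewhere; the part of this in the values of the small single-copy region was not tested.

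The lowest gene there was rpl32 (ArthCp072), a gene of the large ribosomal subunit at 113449 to 113607. Its stroma coverage was 0.988, 0.924 and 0.894 in chlm replicates 2, 3 and 4, and 1.15, 1.11, 1.08 and 1.22 in Col0 replicates 1 to 4. All chlm stroma libraries were below all Col0 stroma libraries. The stroma change was -0.28 ± 0.09 (SE; 95% interval -0.46 to -0.10), with a limma adjusted p of 0.331. In the membrane the values were 0.968, 0.826, 0.963 and 1.09 in chlm and 0.927, 0.878, 0.895 and 1.13 in Col0, and they interleaved.

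The long ycf1 gene (Arthcp087), which encodes Tic214, described as part of protein import at the inner envelope, had stroma values of 1.01, 0.997 and 0.914 in chlm and 1.14, 1.04, 1.11 and 1.16 in Col0. These groups did not overlap either, at a change of -0.18 ± 0.07 (SE) and a limma adjusted p of 0.331. The stroma groups did not overlap for 6 genes with lower values in chlm (5.31% of genes) and 4 with higher values (3.54%). For 1 gene with 3 against 4 libraries, the exact permutation probability of such a separation in a given direction is 0.0286. Both shares are near that, and neighbouring genes are not independent. In the membrane every gene overlapped. The lower 6 were rpl32, rps15, ycf1 and ndhG of the small single-copy region, with clpP and psbT. The higher 4 were rrn16S and the photosystem II genes psbB, psbC and psbD. None of these 10 was called.

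For the tRNA genes the question of interest was trnE, whose product feeds chlorophyll synthesis as well as translation. Coverage of trnE (ArthCt097, 30466 to 30538) was 1.28, 1.59, 1.13 and 1.04 in chlm membrane replicates 1 to 4, and 1.44, 1.73, 1.30 and 1.17 in Col0. Each chlm library was below its partner and the groups overlapped. In the stroma it was 1.19, 0.841 and 0.994 in chlm replicates 2, 3 and 4, and 0.805, 1.14, 0.812 and 0.857 in Col0. Here each chlm library was above its partner, and the groups again overlapped.

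The trnE change was -0.17 ± 0.10 (SE; 95% interval -0.37 to 0.04) in the membrane and 0.14 ± 0.11 (SE; 95% interval -0.08 to 0.36) in the stroma, at limma adjusted p-values of 0.839 and 0.472. In the ratio it was -0.30 ± 0.14 (SE), at a limma adjusted p of 0.266. When the fractions were fitted apart, 7 genes and 9 windows were called in the membrane. They were rps19, higher in chlm, and trnE, trnV (Arthct121), trnA, rrn23S, trnR (ArthCt127) and trnN, lower; the trnE change stayed at -0.17, at a limma adjusted p of 0.0484. Of the 9 windows, from 259 in all, 6 were among the 14 of the operon and lower. At an unadjusted limma p under 0.05 all 14 operon windows were lower in the membrane in that fit, and 0 of 14 passed in the stroma.

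The neighbours of trnE, trnY (ArthCt096) and trnD (ArthCt095), which encode the tyrosine and aspartate tRNAs, had membrane changes of -0.10 and -0.07 and stroma changes of 0.12 and 0.02. With trnV (ArthCt103) and trnM (ArthCt104) they make the list of sigma factor 2 tRNA genes. Of its 5 members 0 were called, and its median was -0.07 in the membrane, 0.07 in the stroma and -0.09 in the ratio. For all genes these medians were 0.00, -0.01 and 0.02.

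Among all 30 tRNA genes none was called. Their median was 0.04 in the stroma, where 18 had a positive change, and -0.08 in the ratio. In the membrane 25 of them had a negative change, with a median of -0.06, beside 56 of all 113 genes and a median of 0.00. The lowest were trnR (ArthCt127) at -0.23, trnN at -0.19 and trnG (ArthCt116) at -0.19, and they are the 3 lowest of all genes. For trnR (ArthCt127), an arginine tRNA gene of the repeat, chlm membrane values were 1.33, 2.01, 1.18 and 0.945 and Col0 values 1.55, 1.95, 1.56 and 1.20. Chlm was lower in 3 of 4 pairs and the groups overlapped.

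In the ratio trnR (ArthCt093), another arginine tRNA gene, was the highest gene, at 0.34 ± 0.17 (SE; limma adjusted p = 0.301). Its stroma values were 0.579, 0.717 and 0.537 in chlm and 0.627, 0.748, 0.711 and 0.805 in Col0. The stroma groups overlapped. The glutamine tRNA gene trnQ (ArthCt090) had changes of -0.10, -0.01 and -0.09 in membrane, stroma and ratio, and the tRNA entry ArthCt100, which the gene table leaves unnamed, 0.03, -0.07 and 0.10.

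**Figure D4:**
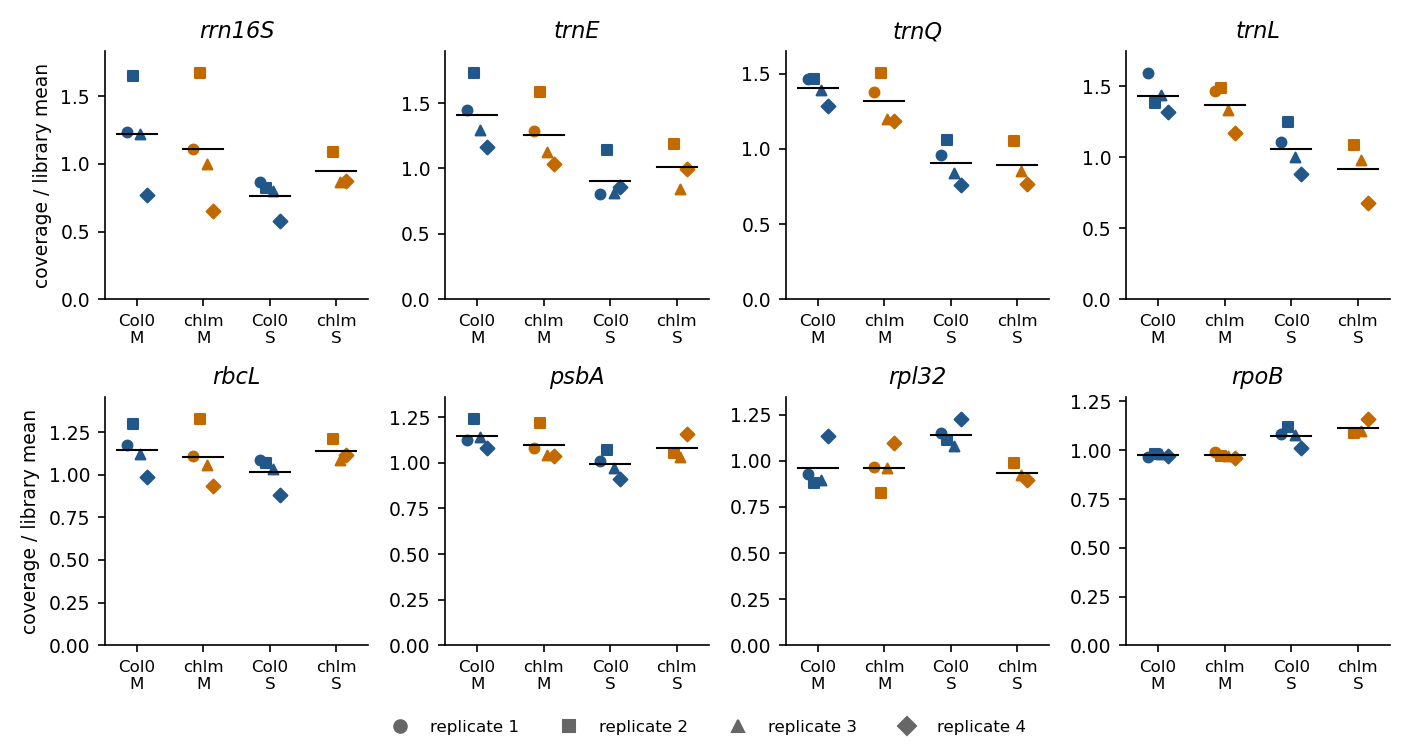
Coverage divided by the library mean (y axes, linear, from 0) of 8 genes in each Col0 (blue) and chlm (orange) library of the membrane (M) and stroma (S) fractions; symbols are replicate numbers and bars are group means. For trnL the entry shown is Arthct122. The chlm and Col0 groups overlap in every membrane panel, and in the stroma panels of rrn16S and rpl32 they do not.

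By group, the medians of the photosynthetic complexes lay close to 0 in each fraction. In the membrane the medians were -0.03 for 15 photosystem II genes, 0.02 for 7 photosystem I and assembly genes, 0.06 for 6 cytochrome b6f genes, 0.02 for 6 ATP synthase genes and 0.01 for 11 NDH genes, and no member was called. In the stroma they were 0.00, -0.03, -0.03, 0.08 and -0.07, again with no call. In the ratio they were -0.07, 0.03, 0.10, -0.09 and 0.10, beside 0.02 for all genes, and no member was called. Of all 113 genes 8 were higher in chlm stroma at an unadjusted limma p under 0.05. They were 3 of the 6 ATP synthase genes, 1 photosystem II gene, 1 photosystem I or assembly gene, rbcL and 2 rRNA genes.

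The Rubisco large-subunit gene rbcL (ArthCp030) had stroma values of 1.21, 1.08 and 1.12 in chlm replicates 2, 3 and 4, and 1.08, 1.07, 1.03 and 0.879 in Col0. Each chlm library exceeded its partner, and the groups overlapped narrowly. The stroma change was 0.17 ± 0.06 (SE; 95% interval 0.04 to 0.30) and the ratio change -0.22 ± 0.09 (SE), at limma adjusted p-values of 0.331 and 0.248.

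The D1 protein gene psbA (ArthCp002) had membrane values of 1.08, 1.22, 1.04 and 1.04 in chlm and 1.12, 1.24, 1.14 and 1.08 in Col0. Each chlm library was below its partner and the groups overlapped. Its stroma values were 1.06, 1.03 and 1.16 in chlm and 1.01, 1.07, 0.972 and 0.912 in Col0. The changes were -0.07 ± 0.05 in the membrane, 0.12 ± 0.05 in the stroma and -0.19 ± 0.07 in the ratio (SE), at a limma adjusted p of 0.248 for the last.

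Of the photosystem II core genes, psbB, psbC and psbD had stroma changes of 0.10, 0.11 and 0.10, and membrane changes of -0.05, -0.01 and -0.03. The photosystem I core genes psaA and psaB had stroma changes of 0.11 and 0.06. The ATP synthase genes atpB and atpE had stroma changes of 0.12 and 0.18, and atpB a membrane change of -0.03. The cytochrome f gene petA (ArthCp035) was higher in chlm in 4 of 4 membrane pairs, by 0.08 ± 0.03 (SE; limma adjusted p = 0.839). The NDH gene ndhB had changes of 0.01 in the membrane and 0.05 in the stroma.

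Genes of the gene expression machinery other than rRNA also gave no call. The 4 genes of the plastid-encoded polymerase had medians of 0.02 in the membrane, 0.00 in the stroma and 0.02 in the ratio. The subunit gene rpoB (ArthCp014) had membrane values of 0.993, 0.972, 0.968 and 0.960 in chlm and 0.968, 0.981, 0.982 and 0.970 in Col0. These interleaved, and the 95% interval of the membrane change was -0.07 to 0.06. The 12 small-subunit and 9 large-subunit ribosomal protein genes had membrane medians of 0.03 and 0.06. The highest membrane gene was rps19, at 0.16 ± 0.13 (SE), ahead of petL at 0.15 and trnH at 0.12.

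The 7 housekeeping genes assigned to the polymerase from the nucleus (ycf1, ycf2, accD, clpP, rpoB, rpoC1 and rpoC2) had medians of 0.02 in the membrane, -0.02 in the stroma and 0.07 in the ratio. The protease gene clpP had values of 0.972, 0.843, 0.965 and 1.03 in chlm membranes and 0.917, 0.794, 0.916 and 1.01 in Col0, and each chlm library was above its partner. The mean log2 coverage of 27 photosynthesis genes minus that of these 7 was 0.00 ± 0.02 in chlm and 0.02 ± 0.04 in Col0 membranes (SD, n = 4 each). In the stroma it was -0.01 ± 0.06 (SD, n = 3) and -0.04 ± 0.02 (SD, n = 4). The ranges overlapped in both fractions.

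Among windows the membrane extremes were 108001 to 108500, over trnR (ArthCt127), at -0.21 ± 0.08 (SE), and 13501 to 14000, over the ATP synthase gene atpH, at 0.18 ± 0.09 (SE). A window is named by any gene it overlaps, also where most of the window lies outside that gene. In the stroma they were 113001 to 113500, mostly outside rpl32, at -0.38 ± 0.16 (SE), and 102001 to 102500, over rrn16S, at 0.35 ± 0.17 (SE). The same 2 windows were the extremes of the ratio, at 0.47 ± 0.22 and -0.54 ± 0.24 (SE). Relative coverage over rrn16S was 0.903 ± 0.121 (SD, n = 3) in chlm stroma and 0.724 ± 0.152 (SD, n = 4) in Col0 stroma, and limma adjusted p-values of these windows were 0.318 or above. With no call there was no run of neighbouring called windows.

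Within chlm itself the membrane and the stroma differed. Of the 113 genes 29 were called by limma (25.7%), 12 higher in the membrane (10.6%) and 17 lower (15%), and of the windows 62 (23.9%), 21 higher (8.11%) and 41 lower (15.8%). In Col0 60 genes (53.1%) and 106 windows (40.9%) were called, 26 genes higher (23%) and 34 lower (30.1%). These are counts within each genotype, and with 3 chlm stroma libraries against 4 they do not compare the genotypes; the test of that difference is the ratio above, which called nothing. The fractions also differ in depth, as given above, and the part of depth in these calls was not tested.

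All 12 genes higher in chlm membranes were tRNA genes, of 30 tested. The farthest were ArthCt100 at 0.61 ± 0.09, trnL (Arthct122) at 0.57 ± 0.08, trnQ at 0.55 ± 0.06 and trnT at 0.48 ± 0.11 (SE). Coverage of trnQ was 1.38, 1.50, 1.20 and 1.19 in chlm membranes and 1.05, 0.850 and 0.768 in chlm stroma. The fractions did not overlap, nor did they in Col0, with 1.47, 1.47, 1.39 and 1.29 in membranes and 0.958, 1.06, 0.840 and 0.762 in stroma. The limma adjusted p of trnQ was 1.25e-06 in chlm. Next came trnG (ArthCt116) at 0.47, trnM at 0.44, trnR (ArthCt093) at 0.35 and trnE at 0.34 ± 0.11 (SE; limma adjusted p = 0.0277).

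Of these 12 genes 11 were also called higher in Col0 membranes, which is 91.7% of the chlm list and 42.3% of the Col0 list; trnR (ArthCt093) was the other one. The trnE value was 0.64 ± 0.10 (SE) in Col0. The rRNA genes were called in Col0, 4 of 4, and 0 of 4 were called in chlm: rrn16S stood at 0.64 ± 0.14 in Col0 and 0.15 ± 0.16 in chlm (SE; limma adjusted p = 0.52 in chlm), and their difference did not pass.

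Genes lower in chlm membranes included rpoB at -0.20 ± 0.03, psbB at -0.18 ± 0.06, atpB at -0.18 ± 0.05 and rpoC1 at -0.15 ± 0.03 (SE). Of the 17 genes 9 were also called lower in Col0, 52.9% of the chlm list and 26.5% of the Col0 list. By group, beside 15% of all genes, 3 of 4 polymerase genes, 2 of 6 ATP synthase genes, 2 of 7 photosystem I and assembly genes, 3 of 11 NDH genes and 3 of 15 photosystem II genes were called lower in chlm membranes. So were 2 of 12 small-subunit and 1 of 9 large-subunit ribosomal protein genes, and 0 of 6 cytochrome b6f genes. The farthest windows were 36001 to 36500, over trnG (ArthCt116), at 0.76 ± 0.15, and 97001 to 97500, over ndhB and rps7, at -0.26 ± 0.06 (SE). The longest run of neighbouring called windows held 7, from 22501 to 26000 in rpoC1 and rpoB, all lower in the membrane.

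The chlm counts depended on the block, on scaling and on single libraries. Without the replicate block 9 genes and 12 windows were called in chlm, and 18 genes and 28 windows in Col0. Scaled by the median, 20 genes were called in chlm, 14 higher and 6 lower, and 37 windows, 27 higher and 10 lower. Scaled by single-copy coverage, 13 genes were higher and 9 lower, and 26 windows each way. Of the fits that left out 1 library, the one without chlm stroma replicate 4 had the fewest calls, 11 genes and 21 windows. Without chlm membrane replicates 1, 2 or 4 there were 12, 16 and 16 genes, and without chlm membrane replicate 1 there were 39 windows.

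**Figure D5:**
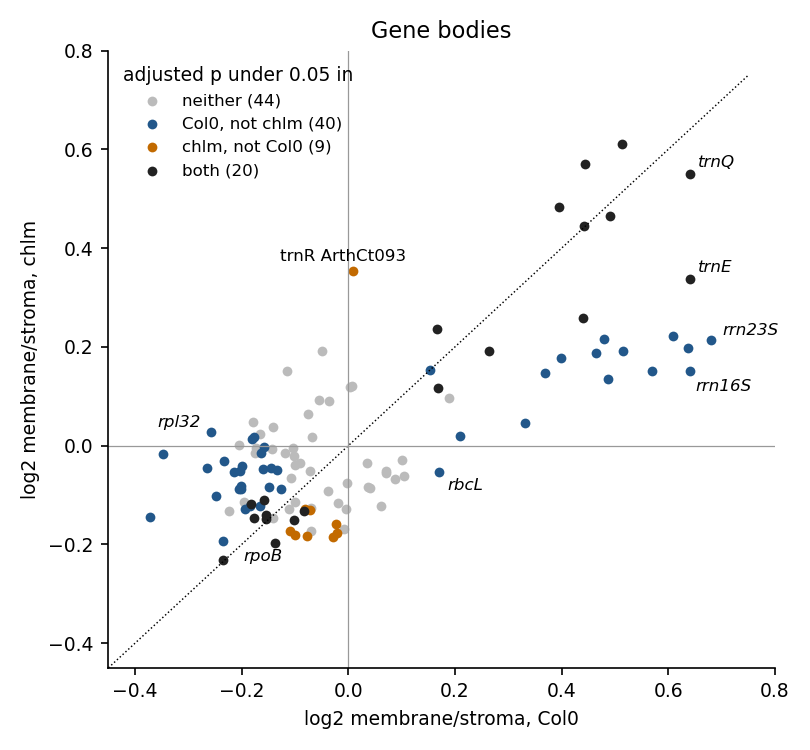
Log2 membrane/stroma coverage of each of 113 genes in Col0 (x axis) and chlm (y axis); colour gives the genotype in which limma called the difference between fractions, with counts, and the dotted line is equality. tRNA genes such as trnQ lie high in both, and rrn16S and rrn23S lie at 0.64 and 0.68 in Col0 and at 0.15 and 0.21 in chlm.

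Against chl27, the mutant of the next step of the pathway, chlm differed in 1 gene. The gene was trnL (Arthct122), a leucine tRNA gene of the small single-copy region at 114270 to 114349, called by limma in the ratio (0.885% of genes) and in the stroma (0.885%); in the membrane 0 genes were called and 0 windows in any of the 3. At an unadjusted limma p under 0.05 there were 8 genes in the ratio (7.08%), 6 in the stroma (5.31%) and 0 in the membrane, and 3 (1.16%), 6 (2.32%) and 0 windows. Relative coverage of trnL was 1.37 ± 0.15 in chlm membranes and 1.26 ± 0.14 in chl27 membranes (SD, n = 4 each). In the stroma it was 0.914 ± 0.21 (SD, n = 3) and 1.18 ± 0.20 (SD, n = 4). For Col0 the trnL values were 1.43 ± 0.12 in membranes and 1.06 ± 0.16 in stroma (SD, n = 4 each), and trnL was not called between chlm and Col0. The ratio was higher in chlm by 0.48 ± 0.11 (SE; limma adjusted p = 0.0425), and the stroma lower by a change of -0.36 ± 0.08 (SE; limma adjusted p = 0.0375). Of 21 alternatives each, 11 lost the ratio call and 8 the stroma call. Without chlm stroma replicate 4 the limma adjusted p was 0.185 in the ratio and 0.47 in the stroma.

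Against the sigma factor mutant sig2-2, 5 genes had a higher membrane/stroma ratio in chlm (4.42% of genes by limma), all of them tRNA genes, and none a lower one. They were trnT at 0.68 ± 0.15, trnL (Arthct122) at 0.64 ± 0.11, trnE at 0.59 ± 0.14, trnQ at 0.51 ± 0.09 and trnS (ArthCt117) at 0.38 ± 0.09 (SE). For trnE, relative coverage was 1.26 ± 0.24 in chlm and 1.14 ± 0.12 in sig2-2 membranes (SD, n = 4 each), and 1.01 ± 0.17 (SD, n = 3) and 1.38 ± 0.39 (SD, n = 4) in stroma. Stroma means of trnT, trnL, trnE, trnQ and trnS were 0.817, 0.914, 1.01, 0.891 and 0.940 in chlm. In Col0 they were 0.902, 1.06, 0.904, 0.906 and 0.989, and in sig2-2 1.15, 1.44, 1.38, 1.29 and 1.21. None of these 5 genes was called between chlm and Col0. Of the 259 windows 3 were called (1.16%), all higher, and without the replicate block 0 windows and 1 gene, trnT, were called.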

How the data were processed

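DNA coverage was measured in membrane and stroma fractions of seedling chloroplasts. The authors deposited coverage per base of the plastid genome, whole numbers in 1 column per library. Per the submitters' processing notes, tools were Trim Galore 0.4.1, Bowtie2 2.2.8.9 and bedtools 2.25.0, with build TAIR10; duplicate handling and the placement of reads shared by both repeat copies are not given in the sources used here. Of 32 columns 1 had no coverage and was not used. Read length is not given, so no counting interval was computed.

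Coverage was averaged over 500-bp windows and gene bodies, divided by the library mean and taken as log2 without a pseudocount. The library mean ran over all 309 windows, with both repeat copies, and the second copy was left out of the features tested. The gene table was that of assembly TAIR10.1, whose repeat axis, 238649, matched that of the coverage. limma 3.58.1 (R 4.3.3) was fitted to all 31 libraries of the 4 genotypes with group means and replicate number, tested first on simulated data. The replicate number was a block because the design of this comparison set it. All 14 same-number correlations exceeded 0.1, but libraries of different numbers were not correlated as a baseline. Whether equal numbers mark shared preparations was not tested. Figures and permutation tests used Python 3.

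Named genes were the most extreme of each comparison plus a fixed list of 28; others were named after their values were seen. Members and lists were chosen with earlier results of these data known. Alternatives covered the block, the libraries fitted, scaling, low values, the pseudocount, window size and each library left out.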

Additional observations from a re-analysis of the deposited data

Results flagged for a closer look

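In 3 groups of 4 libraries, 117 sets of values were examined for 1 library standing apart, and 4 were found, all in Col0 stroma; chance alone marks about 1 in 20. Relative coverage of trnE was 1.14 in replicate 2, against 0.805 to 0.857 in the others. In replicate 4 psbD was 1.03 against 1.12 in the others, psaA 0.975 against 1.06 to 1.07, and rpoC1 1.08 against 1.10 to 1.11. These libraries are in the Col0 side of the stroma and ratio comparisons.

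Between mutants, the membrane/stroma ratio of trnL (Arthct122) was higher in chlm than in chl27 by 0.48 log2 units, and its stroma change was -0.36. Against sig2-2 the ratios of trnQ, trnE, trnT, trnS (ArthCt117) and trnL (Arthct122) were higher in chlm by 0.51, 0.59, 0.68, 0.38 and 0.64. Of these, trnT was called under all 21 alternatives. The windows from 30001 (over trnY and trnE), 47501 (over no gene) and 51501 (over trnV) were higher by 0.24, 0.34 and 0.26.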

How the results depend on the processing

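Between chlm and Col0 no gene or window was called without the replicate block, in a fit of chlm and Col0 libraries alone, with median or single-copy scaling, with a pseudocount of 0.1, without low features, or with windows of 200 or 1000 bp. Calls appeared in 2 ways: with the fractions fitted apart, 9 windows and 7 genes in the membrane; and with single libraries left out, where counts ran from 0 to 49 windows and 0 to 17 genes in the stroma and from 0 to 45 windows and 0 to 17 genes in the ratio, all from leaving out chlm stroma replicate 2. The cause was not tested. Among named genes 2346 results kept their side of the threshold and 30 passed it.

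The replicate block decided several counts. Without it, calls between fractions were 12 windows and 9 genes in chlm and 28 windows and 18 genes in Col0; chlm against chl27 had 0 genes in the ratio and 0 in the stroma, and chlm against sig2-2 had 0 windows and 1 gene. With the block set within genotype, the counts were 37 windows and 10 genes in chlm, 0 genes against chl27 in the ratio, and 0 windows and 3 genes against sig2-2. The blocked operon differences were -0.20 in the membrane and 0.38 in the stroma.

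Membrane against stroma in chlm gave 37 windows with median scaling, 100 of 648 with 200-bp and 38 of 130 with 1000-bp windows, and 17 genes with chlm and Col0 alone. Col0 gave 226 and 70 windows at those sizes. With single libraries left out, chlm gave 21 to 79 windows and 11 to 33 genes. Against chl27, single-copy scaling left 0 genes in the ratio and 0 in the stroma, and leaving out libraries 0 to 1 in each. Against sig2-2, windows numbered 0 to 3 with libraries left out and 1 at 1000 bp. Leaving out single libraries moved the unpaired membrane operon difference from -0.44 to 0.03, with the sign changed, at 0.028, without chlm membrane replicate 4. Membrane depth was lower than stroma depth in every chlm and Col0 library, and 3 chlm stroma libraries limit the stroma and ratio comparisons.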
